A study of Melitaea cinxia with 174 samples.

Results

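Defensins are small, cysteine-rich antimicrobial peptides that insects secrete into the haemolymph. In insects they are made largely by the fat body, the organ that in function combines liver and adipose tissue, and by blood cells. Their genes are switched on by the Toll and Imd pathways after microbes are recognised, and in moths and butterflies they are induced together with other antimicrobial peptides (AMPs), such as cecropins, gloverins, lebocins and moricins. Expression of 2 defensin genes of the Glanville fritillary butterfly (Melitaea cinxia), Defensin-1 (MCINXTMP_014016) and Defensin-5 (MCINXTMP_000474), is described here across the thorax RNA-seq of 174 individuals. They are 2 of the 16462 gene models with at least 1 read (205 further gene models had none), and both were picked by identifier from the count data. Their names are those used in the original work.

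The butterflies came from 4 regional populations around the Baltic Sea and were collected as diapausing larvae. ÅL (Åland, AL in the labels; 23 females and 26 males) and UP (Uppland; 11 females and 9 males) live in fragmented landscapes. SA (Saaremaa; 28 females and 35 males) and ÖL (Öland, OL in the labels; 15 females and 27 males) live in continuous landscapes. All individuals overwintered in groups within their population, were reared singly as larvae in a common garden on Plantago lanceolata and were held as adults for a few days before the thorax was frozen. The thorax holds mostly flight muscle, with some fat body and haemolymph. As there are only 2 populations for each landscape type, landscape and any other difference between the populations cannot be told apart. In whole thoraces, a change in the number of fat body or blood cells and a change in RNA per cell cannot be told apart either.

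The total count per individual ranged from 442717 to 7742394 over all gene models, and every comparison of 2 butterflies from the same population showed differences well above counting noise. The expression of 50 sex-biased genes was closer to the other sex in 8 individuals, of which ÅL female 3 and SA male 23 matter below. These were barely past the middle, with 26 and 27 of the 50 genes, against 46 in ÖL male 11 and 44 in SA female 6. A few individuals of ÖL and UP were set aside in the original work on genetic grounds, among them possible switched labels; the labels do not mark them, and they are included here. Both markers of flight muscle, Troponin C isoform 1 and Troponin C, were read in every population, with a summed level of 536 to 5306 normalized counts per individual. The 6 markers of fat body and haemolymph, which include 4 hexamerin storage proteins, were read as well, with a summed level of 80.3 to 3911.

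In most butterflies both defensins were expressed at a low level, and in a few they were very high. The median raw count per individual was 20 for Defensin-1 and 21 for Defensin-5. No read was found in 3 individuals for Defensin-1 and in 4 individuals for Defensin-5. In normalized counts, which are raw counts scaled for library size and composition, Defensin-1 had a lowest value of 0, a median of 7.49 and a highest value of 1807 among the 174 individuals. Defensin-5 had a lowest value of 0, a median of 8.10 and a highest value of 4953. The mean was 8.39 times the median in Defensin-1 and 11.3 times the median in Defensin-5.

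A small number of individuals therefore carried most of the signal. The 3 highest individuals held 36.8% of the summed normalized count of Defensin-1 and 70.9% of that of Defensin-5. Values above 100 normalized counts were found in 15 individuals (8.62%) for Defensin-1 and in 11 individuals (6.32%) for Defensin-5. Within populations, the SD of log2(normalized count + 1) was 2.08 for Defensin-1 and 1.87 for Defensin-5, against a median of 0.75 over 9254 gene models with a mean normalized count above 1. Only 13 of these gene models had a larger SD than Defensin-1 and 33 than Defensin-5. The spread between individuals is hence among the widest in the thorax transcriptome. Together with the number of individuals, it sets the error of each comparison below.

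**Figure D1:**
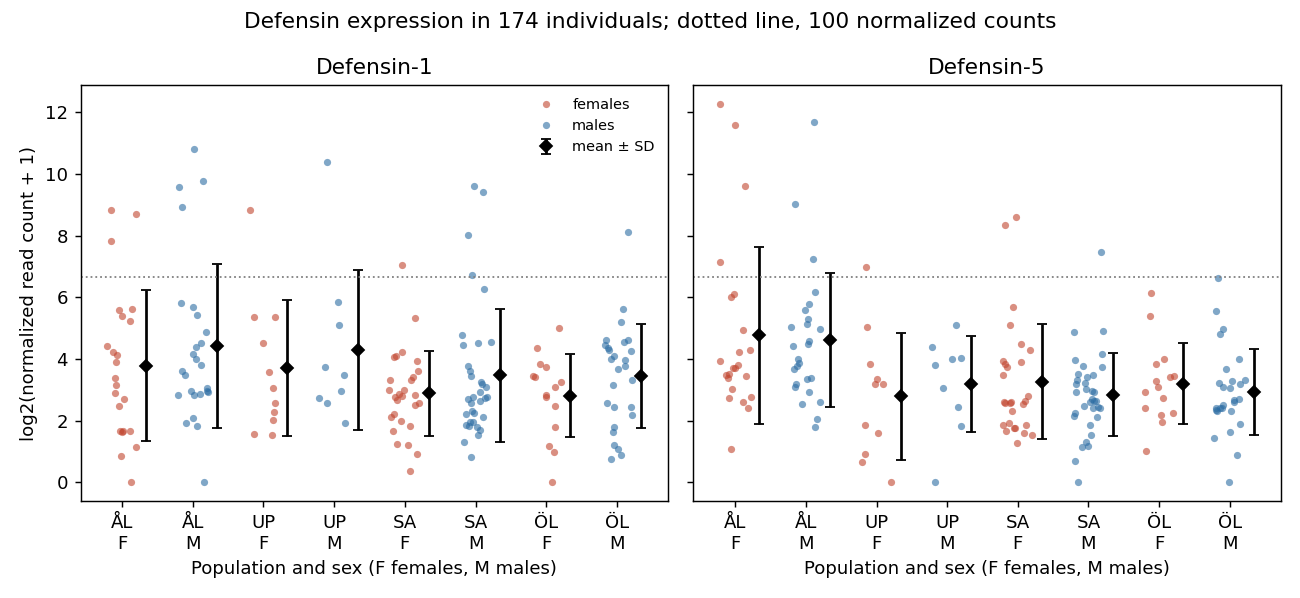
Expression of Defensin-1 (left) and Defensin-5 (right) in the 174 individuals. The horizontal axis gives population and sex, the vertical axis log2(normalized read count + 1); points are individuals and diamonds with bars are means ± SD. Most individuals lie below the dotted line at 100 normalized counts, and the individuals above it number 15 for Defensin-1 and 11 for Defensin-5.

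Defensin-1 was high in some individuals of every population. In ÅL its lowest, median and highest normalized counts were 0, 11.1 and 1807 (n = 49). In UP they were 1.88, 8.71 and 1336 (n = 20). In SA they were 0.28, 5.77 and 774 (n = 63), and in ÖL 0, 9.30 and 275 (n = 42). The ranges of the 4 populations overlapped, though their highest values differed, and the median of ÖL lay between those of UP and ÅL. On the log2(normalized count + 1) scale the mean was 4.13 ± 2.55 (SD) in ÅL, 3.97 ± 2.34 in UP, 3.22 ± 1.58 in ÖL and 3.21 ± 1.86 in SA. Values above 100 occurred in 7 individuals of ÅL, 2 of UP, 5 of SA and 1 of ÖL.

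Defensin-5 had its highest values in ÅL. Its lowest, median and highest normalized counts were 1.11, 13.8 and 4953 in ÅL (n = 49). In UP they were 0, 8.04 and 127 (n = 20). In SA they were 0, 5.25 and 392 (n = 63), and in ÖL 0, 6.08 and 97.3 (n = 42). The 5 highest individuals of the whole data set were all from ÅL, yet the ranges overlapped here too. On the log2 scale the mean was 4.68 ± 2.50 (SD) in ÅL, 3.03 ± 1.35 in ÖL, 3.03 ± 1.60 in SA and 2.96 ± 1.82 in UP, so the last 3 populations differed by much less than their spread. Values above 100 occurred in 7 individuals of ÅL, 1 of UP, 3 of SA and none of the 42 of ÖL.

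The comparison of landscape types asks whether the genes differ between butterflies of fragmented and continuous landscapes. It was made in a balanced set with the 15 most deeply sequenced individuals of each population. Both defensins had higher expression in fragmented landscapes in edgeR's quasi-likelihood test of counts, in which the fold change follows the mean count and so gives much weight to very high individuals. The log2 fold change was 2.73 (SE 0.71, FDR = 0.00488) for Defensin-1 and 2.58 (SE 0.60, FDR = 0.00151) for Defensin-5. Among all 16331 gene models tested, 16.2% were called at FDR<0.05 in this contrast, and 25.7% of the 8225 gene models that passed a filter on low counts.

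The same contrast was smaller and did not pass the threshold where each individual was weighed on a log scale. The difference of landscape means of log2(normalized count + 1) in the balanced set was 0.92 for Defensin-1 (p = 0.125, permutation test, two-sided) and 0.92 for Defensin-5 (p = 0.0784). With limma-voom, which also works on log values, the log2 fold changes were 0.89 (FDR = 0.364) and 0.92 (FDR = 0.276). With all 174 individuals, the differences on the log2 scale were 0.84 (p = 0.0162, permutation test) and 0.79 (p = 0.0161), and the quasi-likelihood test gave 2.04 (SE 0.40, FDR = 1.93e-05) and 1.97 (SE 0.38, FDR = 1.13e-05). In the remaining, less deeply sequenced butterflies alone, the log2 fold changes were 0.95 (SE 0.58, FDR = 0.348) for Defensin-1 and 0.53 (SE 0.67, FDR = 0.721) for Defensin-5, neither of which passed. UP, with 15 of its 20 individuals in the balanced set, had few butterflies among them.

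For Defensin-5 the landscape difference rested on ÅL. Expression was higher in ÅL than in UP by 4.81 on the log2 scale (SE 0.92, FDR = 0.000372), than in SA by 4.08 (SE 0.89, FDR = 0.000480) and than in ÖL by 5.89 (SE 0.98, FDR = 3.37e-05). The backgrounds of gene models called in these 3 pairs were 8.89%, 22.2% and 12.3%. UP, the other fragmented population, did not differ detectably from the continuous ones, with log2 fold changes of -0.73 (95% confidence interval -2.33 to 0.87) against SA and 1.08 (-0.56 to 2.72) against ÖL. With ÅL left out, the landscape difference of Defensin-5 was 0.18 (FDR = 0.881).

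For Defensin-1, ÅL and UP were the populations with the higher means. The difference between ÅL and UP was 0.55 on the log2 scale (95% confidence interval -1.32 to 2.43). Expression was higher in ÅL than in SA by 3.20 (SE 1.02, FDR = 0.0179), the single pair that passed the threshold. The log2 fold change was 2.82 (SE 1.01, FDR = 0.0531) for ÅL against ÖL, 2.64 (SE 1.0, FDR = 0.0604) for UP against SA and 2.26 (SE 0.99, FDR = 0.232) for UP against ÖL. In the last 2 pairs 15.7% and 2.75% of all gene models were called. The difference between SA and ÖL passed in neither gene, with -0.38 (SE 0.95, FDR = 0.854) for Defensin-1 and 1.81 (SE 0.83, FDR = 0.149) for Defensin-5, in a pair with 12.1% of gene models called. Without SA female 5, which had 326 normalized counts, the latter was 0.30 (FDR = 0.857), and that of UP against SA was 0.76 in place of -0.73. The pairs share populations and are not independent of each other.

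**Figure D2:**
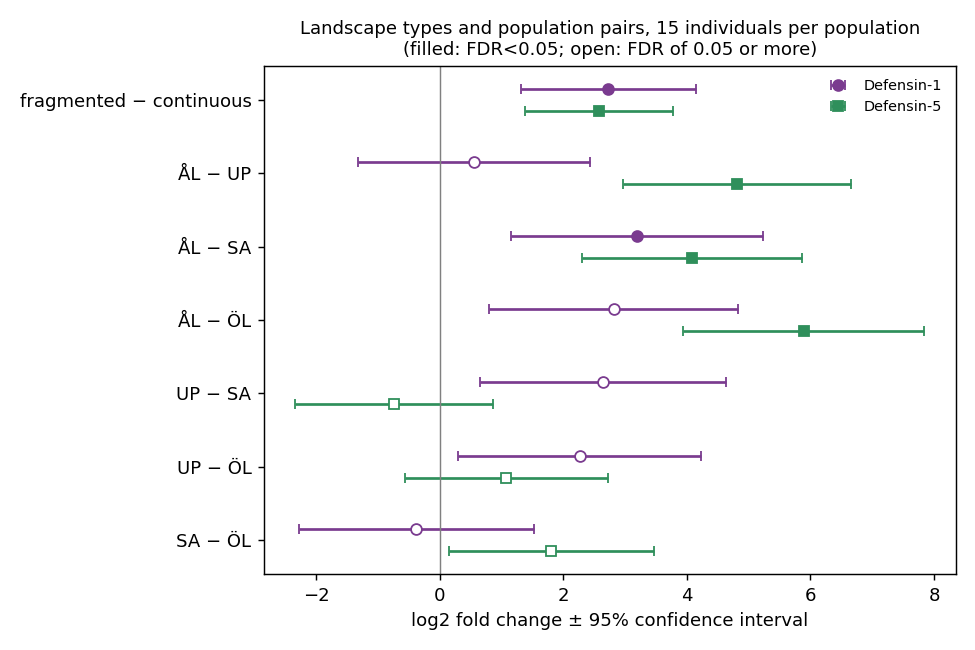
Log2 fold changes with 95% confidence intervals for the landscape contrast and the 6 population pairs in the balanced set, 15 individuals per population. Circles are Defensin-1 and squares Defensin-5; filled symbols have FDR<0.05. Defensin-5 stands high in the 3 pairs that include ÅL, whereas Defensin-1 lies near 0 for ÅL against UP.

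A few butterflies held a large part of these means. In the balanced set of ÅL, the highest individual held 63.9% of the summed Defensin-1 signal and 59.6% of the Defensin-5 signal, and they were different animals: ÅL male 4, with 1807 normalized counts of Defensin-1, and ÅL female 3, with 4953 of Defensin-5. In UP, male 6 held 69.3% of the Defensin-1 signal of the balanced set with 1336 normalized counts. Leaving out each balanced individual above 100 normalized counts in turn, the landscape log2 fold change ranged from 1.92 to 3.51 for Defensin-1 and from 2.0 to 3.33 for Defensin-5 and passed the threshold each time. The call of Defensin-1 for ÅL against SA was lost without 1 of these individuals, ÅL male 4, with a log2 fold change of 1.87 (FDR = 0.152). Without UP male 6, Defensin-1 differed by 1.04 (FDR = 0.492) between UP and SA and by 0.63 (FDR = 0.818) between UP and ÖL. Without ÖL male 7, with 275 normalized counts of Defensin-1, ÅL and UP passed against ÖL with 4.37 (FDR = 0.00348) and 3.81 (FDR = 0.0254). With the highest individual of each population left out, the landscape difference was 2.40 (FDR = 0.00285) and 2.63 (FDR = 0.000140). For Defensin-5, each omission above kept ÅL female 3 or ÅL female 2, with 4953 and 3062 normalized counts. The third highest balanced value in ÅL was 71.7, so these omissions do not show the difference without both females. With all 8 balanced individuals above 100 left out together, the landscape difference was 0.69 (FDR = 0.211) and 0.81 (FDR = 0.0600), but that limit is set on the same genes and narrows any difference.

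The pairs were also compared per individual on the log2(normalized count + 1) scale with permutation tests, adjusted over 12 tests. In the balanced set, Defensin-5 was higher in ÅL than in ÖL by 2.13 (adjusted p = 0.0352, permutation test), and no other pair of either gene passed. With all 174 individuals, Defensin-5 was higher in ÅL than in UP by 1.72 (adjusted p = 0.0261), than in SA by 1.66 (adjusted p = 0.00024) and than in ÖL by 1.65 (adjusted p = 0.00078). No pair passed for Defensin-1, where the largest difference was 0.92, for ÅL against SA (adjusted p = 0.0890). Whether the 2 genes differ between ÅL and UP to an unequal degree was tested on the difference between their log2 values within each butterfly. Defensin-5 relative to Defensin-1 was higher in ÅL by 1.56 with all individuals (adjusted p = 0.0795 over 6 pairs, permutation test) and by 1.24 in the balanced set (adjusted p = 0.296), so an unequal degree was not shown.

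Males and females were compared in all 174 individuals with 1 mean per population and sex. Defensin-1 was higher in males, with a log2 fold change of 1.68 (SE 0.42, FDR = 0.00155), in a contrast with 13.7% of 16462 gene models called, or 22.7% after the filter on low counts. The lowest, median and highest normalized counts of Defensin-1 were 0, 8.50 and 1807 in males (n = 97) and 0, 6.99 and 457 in females (n = 77). The 7 highest individuals were males, while the medians were close. Defensin-5 had a log2 fold change of -0.84 (SE 0.39, FDR = 0.149), with lowest, median and highest values of 0, 7.60 and 3316 in males and 0, 8.69 and 4953 in females. The call of Defensin-1 was lost with limma-voom (0.78, FDR = 0.110), in the balanced set (1.20, FDR = 0.416) and without all individuals above 100 normalized counts (0.26, FDR = 0.593). Defensin-5 was called lower in males in the balanced set alone (-2.06, FDR = 0.00569). In ÅL, whose balanced females include female 3 and female 2 with 4953 and 3062 normalized counts, that difference was -5.47.

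The sex difference of Defensin-1 had the same sign in each population but passed the threshold in SA alone. The log2 fold change of males against females was 1.45 (SE 0.69, FDR = 0.191) in ÅL, 1.60 (SE 1.06, FDR = 0.733) in UP, 2.27 (SE 0.65, FDR = 0.0148) in SA and 1.40 (SE 0.84, FDR = 0.406) in ÖL. The shares of all gene models called were 8.46%, 0.456%, 6.38% and 5.40% in the same order. Whether the populations differ in this effect was not tested. In SA, 4 of 35 males and 1 of 28 females were above 100 normalized counts. The call in SA was lost without the 8 individuals whose sex genes resembled the other sex, SA male 23 with 774 normalized counts among them (log2 fold change 1.61, FDR = 0.101), whereas the difference over all populations was then 1.67 (FDR = 0.000958). On the log2(normalized count + 1) scale the mean difference between males and females was 0.62 for Defensin-1 (p = 0.0912, permutation within populations) and -0.11 for Defensin-5 (p = 0.715).

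The landscape difference was called in each sex in the count model with all individuals, and its difference between the sexes was not called. In females it was 2.43 (SE 0.60, FDR = 0.00165) for Defensin-1 and 2.0 (SE 0.56, FDR = 0.00658) for Defensin-5, in a contrast with 14.8% of gene models called. In males it was 2.12 (SE 0.51, FDR = 0.00126) and 1.88 (SE 0.51, FDR = 0.00470), with 15.6% called. The difference between males and females in the landscape effect was -0.31 (95% confidence interval -1.88 to 1.26) for Defensin-1 and -0.12 (-1.66 to 1.41) for Defensin-5, in a test that called 0.425% of gene models. In the balanced set alone, Defensin-1 in females (3.09, FDR = 0.162) and Defensin-5 in males (0.98, FDR = 0.399) did not pass. Without the highest individual of each population and sex, Defensin-1 in males did not pass (0.82, FDR = 0.257), and without all individuals above 100 normalized counts Defensin-5 in females was -0.0081. With limma-voom none of the 4 differences within a sex passed, with log2 fold changes of 0.90 and 0.50 in females and 0.89 and 0.95 in males.

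**Figure D3:**
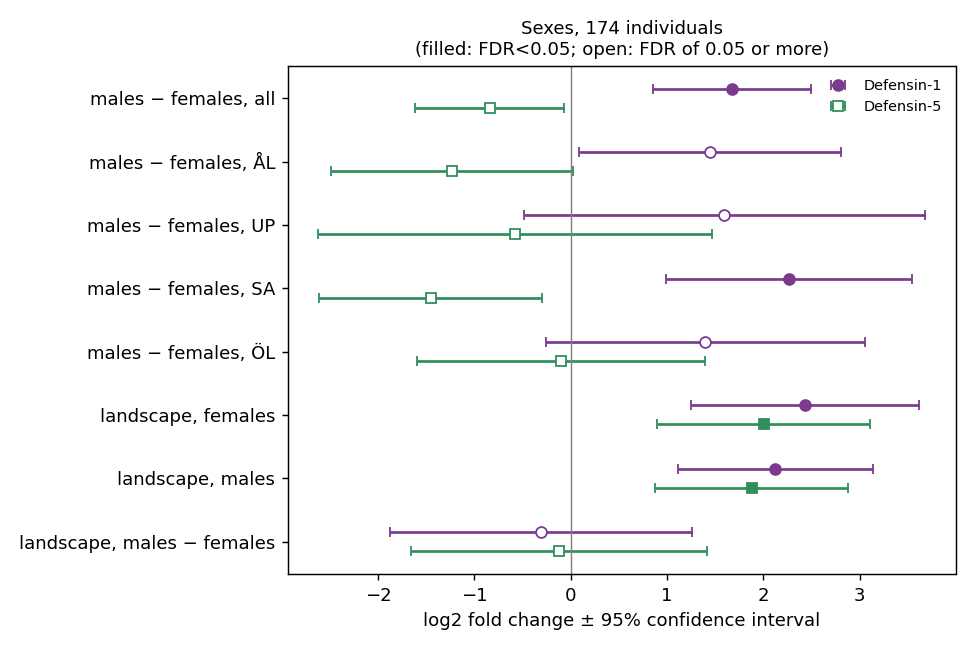
Log2 fold changes with 95% confidence intervals in all 174 individuals, for males against females (over all populations and in each) and for fragmented against continuous landscapes in each sex. Circles are Defensin-1 and squares Defensin-5; filled symbols have FDR<0.05. The sex difference of Defensin-1 is positive throughout and that of Defensin-5 negative throughout, though only Defensin-1 passes, over all populations and in SA.

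Butterflies with a high level of 1 defensin did not always have a high level of the other. Across the 174 individuals, log2(normalized count + 1) of Defensin-1 and Defensin-5 had a Pearson correlation of 0.50 (adjusted p = 7e-05, permutation test) and a Spearman correlation of 0.29 (adjusted p = 0.00039), with adjustment over 14 coefficients. Without the 2 individuals farthest from the median of Defensin-1, r was 0.51. Within populations, r and rho were 0.61 and 0.39 in ÅL (adjusted p = 9.3e-05 and 0.0111, permutation test), 0.44 and 0.28 in SA (adjusted p = 0.00202 and 0.0401), 0.30 and 0.15 in ÖL (adjusted p = 0.0639 and 0.356) and 0.28 and 0.03 in UP (adjusted p = 0.275 and 0.892). In UP, r without the 2 farthest individuals was -0.26, so that no relation was found there. In females r and rho were 0.60 and 0.24 (adjusted p = 7e-05 and 0.0472, permutation test), and in males 0.46 and 0.33 (adjusted p = 0.00011 and 0.00202).

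Of the 10 highest individuals of each gene, 4 were shared. Of the 15 individuals above 100 normalized counts of Defensin-1, 7 (46.7%) were also above 100 for Defensin-5, and these were 63.6% of the 11 for Defensin-5. Among the 155 individuals with no more than 100 of either gene, r was 0.09 and rho 0.07, although a limit set on the same genes lowers any correlation.

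**Figure D4:**
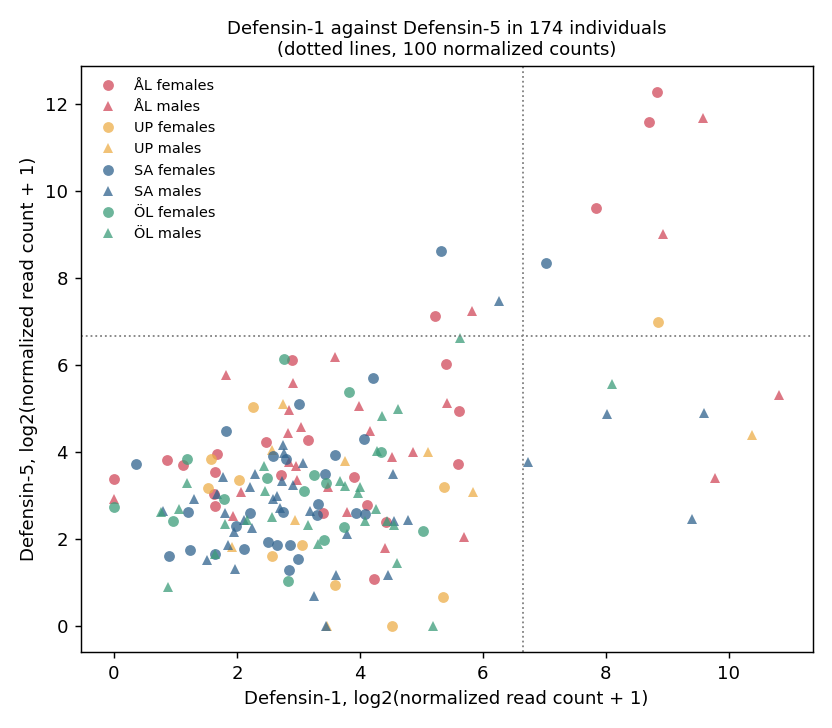
Defensin-5 against Defensin-1 in 174 individuals, both as log2(normalized read count + 1). Colours are populations, circles are females and triangles males, and the dotted lines mark 100 normalized counts. The upper right field holds 7 individuals, and 8 have high Defensin-1 only and 4 high Defensin-5 only.

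The butterflies with high defensin expression differed in their other AMPs. ÅL male 17 had 767 normalized counts of Defensin-1, 3316 of Defensin-5, 4308 of Cecropin-3, 2604 of Cecropin-4/5, 1111 of Gloverin-1 and 1021 of Lebocin-4. ÅL female 3 had 453 of Defensin-1, 4953 of Defensin-5, 2750 of Cecropin-3, 2336 of Cecropin-4/5, 2325 of Gloverin-1 and 1768 of Lebocin-4. In both butterflies all 6 other AMPs measured were among the 10 highest values of their gene. For Moricin-2 this meant 147 normalized counts in ÅL female 3 but only 5.67 in ÅL male 17. Cecropins are helical peptides that disrupt bacterial membranes, gloverins act mainly on Gram-negative bacteria and lebocins are proline-rich peptides.

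The same held for ÅL male 26, with 487 of Defensin-1, 519 of Defensin-5 and 4.24 of Moricin-2. In ÅL female 2, with 414 of Defensin-1 and 3062 of Defensin-5, 5 of the 6 were among the 10 highest. These 4 butterflies were among the 10 highest for both defensins. ÅL female 17, with 227 of Defensin-1 and 787 of Defensin-5, had 3 of the 6 among the 10 highest and 7.23 of Lebocin-4.

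Other butterflies with high Defensin-1 had lower values of most other AMPs. ÅL male 4 had 1807 normalized counts of Defensin-1, with 38.5 of Defensin-5, 148 of Cecropin-3 and 13.96 of Lebocin-4. UP male 6 had 1336 of Defensin-1, with 19.9 of Defensin-5, 132 of Cecropin-3 and 5.42 of Lebocin-4. SA male 26 had 676 of Defensin-1, with 4.51 of Defensin-5, 7.08 of Cecropin-3 and 1.93 of Lebocin-4. None of the 6 other AMPs was among the 10 highest values of its gene in these 3 males, nor in ÅL male 22 and SA male 23, with 879 and 774 of Defensin-1. Cecropin-3 was not far below that cut in 2 of them, at rank 11 in ÅL male 4 and rank 16 in UP male 6. It was at rank 36 in ÅL male 22, 99 in SA male 26 and 121 in SA male 23. These individuals were picked by their defensin values and are described without a test.

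**Figure D5:**
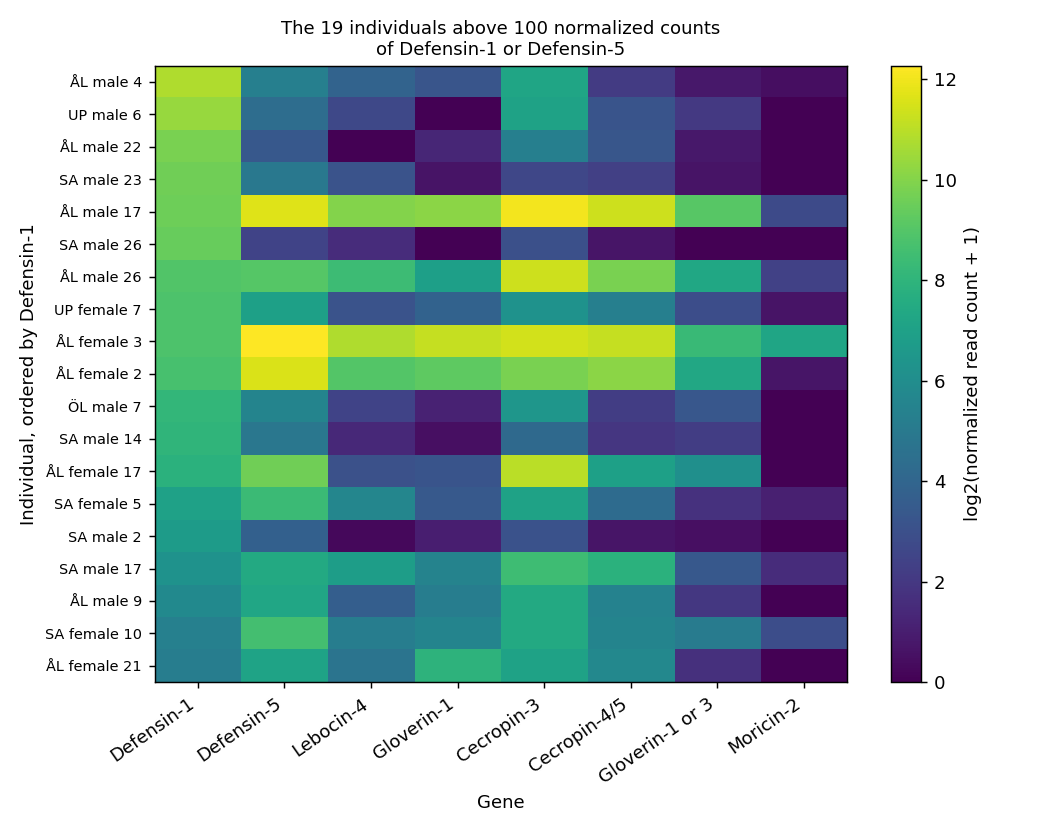
The 19 individuals above 100 normalized counts of either defensin (rows, ordered by Defensin-1) and 8 AMP genes (columns). Colour gives log2(normalized read count + 1). Rows such as ÅL male 17 and ÅL female 3 are bright in nearly all columns, whereas ÅL male 4 and UP male 6 are brightest for Defensin-1, with 148 and 132 normalized counts of Cecropin-3 and less of the other AMPs.

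The gene models whose pattern over the 174 individuals was most like each defensin were ranked by Spearman correlation of normalized counts among 9254 gene models, as a description. For Defensin-5 the closest were Lebocin-4 (rho = 0.65), Gloverin-1 or 3 (0.58), Cecropin-3 (0.54), Cecropin-4/5 (0.54) and MCINXTMP_012163 (0.53). The first 4 are all AMPs. For Defensin-1 the closest were MCINXTMP_014019 (rho = 0.56), Cecropin-3 (0.50), MCINXTMP_012361 (0.41), MCINXTMP_003840 (0.38) and MCINXTMP_002179 (0.38). Defensin-5 held rank 51 for Defensin-1, and Defensin-1 rank 157 for Defensin-5. All points share the depth of their library, with which Defensin-1 had a rho of -0.08 and Defensin-5 of 0.25.

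The remaining AMPs were all higher in fragmented landscapes in the count model. All 6 were called, with log2 fold changes from 2.50 (Cecropin-3) to 3.77 (Moricin-2) and a median of 3.11, against a median of 0.01 over all gene models. In this contrast 16.2% of all gene models were called, and 25.7% after the filter on low counts. The study had already reported AMP genes as higher in fragmented landscapes in these same samples, so this direction is no independent evidence. Against UP, all 6 were also higher in ÅL, with a median of 4.43, from 3.14 for Cecropin-3 to 5.11 for Gloverin-1. Of all gene models, 8.89% were called in that pair. Defensin-5 was called in the same direction in that pair and Defensin-1 was not. None of the 6 was called between the sexes, with log2 fold changes from -0.65 (Moricin-2) to 0.40 (Lebocin-4). Of all gene models, 13.7% were called there, and 22.7% after the filter. The 3 highest individuals held between 55.9% (Cecropin-3) and 85.5% (Moricin-2) of the summed signal of each of these AMPs, and all 3 were from ÅL except for Moricin-2, where 2 were. Moricin-2 was at or near 0 in most butterflies, with 147 normalized counts in ÅL female 3, 6.38 in SA female 10 and 5.67 in ÅL male 17. Its fold changes without ÅL female 3 were not tested.

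Other genes of the immune response also differed between landscape types. All 6 further effectors were higher in fragmented landscapes, in the contrast with 16.2% of all gene models called and 25.7% after the filter on low counts, among them Lysozyme (LYZ), which cleaves the bacterial cell wall (3.08, SE 0.50, FDR = 8.56e-06), and Hemolin, an immunoglobulin-family protein of moth haemolymph (2.91, SE 0.46, FDR = 7.49e-06). Of 10 genes of recognition and Toll signalling, 8 were higher and 2 lower. Spatzle, in Drosophila the ligand of Toll, was higher by 2.43 (SE 0.48, FDR = 0.000241), Toll-4 by 1.34 (SE 0.22, FDR = 8.56e-06) and Dorsal, in Drosophila the NF-kappa-B factor of this pathway, by 1.04 (SE 0.28, FDR = 0.00597). Serpin-4A fell by 1.13 (SE 0.23, FDR = 0.00041) and Peptidoglycan-recognition protein LD fell by 0.34 (SE 0.10, FDR = 0.0106). Many of these genes were listed by the study for their difference between these same samples, so their direction is no independent evidence.

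Markers of fat body moved with the landscape as well. The 4 hexamerins and both troponin C genes were taken from genes that the study had named for a landscape difference in these same samples, and further hexamerin and troponin genes were not used here, so their direction is no independent evidence. All 6 fat body and haemolymph markers were higher in fragmented landscapes, with a median log2 fold change of 3.51, and both flight muscle markers were higher, with a median of 0.60. The share of all gene models called was 16.2%, and 25.7% after the filter on low counts. The summed level of the fat body markers had a lowest value, median and highest value of 121, 274 and 3911 normalized counts in ÅL, 113, 197 and 1665 in UP, 80.3, 149 and 1075 in SA and 97.3, 189 and 912 in ÖL, and no marker was at 0 in any population. Its rho with Defensin-1 was 0.29 and with Defensin-5 0.43 over all individuals, which mixes differences between populations with those within them. Within ÅL, UP, SA and ÖL, rho was 0.34, 0.40, 0.22 and -0.01 for Defensin-1. For Defensin-5 it was 0.30, 0.53, 0.20 and 0.34 in the same order. Between ÅL and UP, 8.89% of all gene models were called but none of the 6 fat body markers. Their median log2 fold change was 0.97, with values from -1.91 for the hexamerin MCINXTMP_015572 to 1.93 for the hexamerin MCINXTMP_015567. Whether this differs from the change of Defensin-5 was not tested. Between the sexes, 3 of the 6 were lower and 1 higher in males, with 13.7% of all gene models called and 22.7% after the filter. The part of the amount of fat body in the defensin differences was not tested.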

How the data were processed

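Thorax RNA of 174 butterflies was sequenced by the authors as 1 strand-specific library per individual. Per the labels, CASAVA 1.7, TopHat2 2.0.5 and edgeR were used. The deposited counts are whole numbers of reads per gene model, without normalization. The deposited normalized counts (unit: signal) were scaled by the authors for library size and TMM factor; each individual's column is a constant multiple of the raw counts.

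Population and sex came from the labels, and landscape type from the study's methods. The main test was the quasi-likelihood F-test of edgeR 4.0.16 in R 4.3.3 (TMM, all gene models with at least 1 read, Benjamini-Hochberg FDR<0.05). For landscape and pairs it used a balanced set, the 15 butterflies of each population with most counts, and all 174 for sex. Two-sided permutation tests used 100000 permutations of log2(normalized count + 1). Correlations were tested in the same way. Adjusted p-values of the count models are those of edgeR, DESeq2 1.42.0 or limma 3.58.1. Simulated counts with known changes were used to check the fits. Extra false calls arose there, mostly in gene models with few reads, so the share called is also given after filterByExpr (minimum count 10), and a fit with bias-adjusted deviances was added. Individuals are numbered in accession order; p-values measure the spread between individuals, which per the study's methods came from different families. Total counts of 442717 to 7742394 set the precision.

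Named genes are the 2 defensins, the genes of the lists of AMPs, other effectors, recognition and Toll signalling, fat body and flight muscle, and the 5 gene models most correlated with each defensin. The members, lists and tests were chosen with earlier results of these data known. Alternatives were RLE size factors, DESeq2, limma-voom, the likelihood ratio test, robust fitting, filterByExpr, covariates and subsets of individuals. Sequences and positions of the genes are not given here.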

Additional observations from a re-analysis of the deposited data

Results flagged for a closer look

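Of the groups by population and sex, only UP males, with 9 individuals, had a size at which a single far value was tested. In this group Defensin-1 of male 6 stood apart from the others, with 1336 normalized counts against 56.1 in the next individual. On the log2(normalized count + 1) scale it was 10.4 against 5.84 and stood apart as well. The cut-off used is one that about 1 of 20 groups of normally distributed values would pass. The defensin counts were strongly skewed, so it gives no rate at which chance yields this value. Defensin-5 of the same individual was 19.9 normalized counts, within the range of the group.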

How the results depend on the processing

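RLE size factors, the likelihood ratio test, robust fitting, filterByExpr, DESeq2, bias-adjusted deviances, library size alone and sex or depth as a covariate kept both landscape calls. Values that crossed the threshold or turned sign follow as log2 fold changes, Defensin-1 before Defensin-5 where both are given; unless stated, the cause was not tested. With limma-voom the landscape difference was 0.89 and 0.92 (no call), in females 0.90 and 0.50, in males 0.89 and 0.95, and its difference between the sexes for Defensin-5 was 0.45; ÅL against UP was 1.98 and ÅL against ÖL 2.29 for Defensin-5, ÅL against SA 1.14 and 1.54, and SA against ÖL 0.033 for Defensin-1; males against females was 0.78 for Defensin-1, 0.69 in SA, and 0.51 for Defensin-5 in UP. Among individuals outside the balanced set, which were more numerous but less deeply sequenced, the landscape difference was 0.95 and 0.53, neither called. In balanced females (27 individuals) it was 3.12 and 3.06, and in balanced males (33 individuals) 0.95 for Defensin-5, none called, with fewer individuals than the balanced set. It was 2.51 for Defensin-1 without SA, and 0.18 without ÅL and 1.69 without ÖL for Defensin-5.

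With all 174 individuals Defensin-1 passed for ÅL against ÖL (2.67) and UP against ÖL (2.51), and SA against ÖL was 1.11. ÅL against ÖL also passed for Defensin-1 with RLE size factors (2.88), DESeq2 (2.88), bias-adjusted deviances (2.82) and filterByExpr (2.86), as did UP against SA with DESeq2 (2.68) and bias-adjusted deviances (2.64). With library size alone, ÅL against UP was -0.27 and ÅL against SA 2.39 (no call) for Defensin-1, and for Defensin-5 males against females in SA passed at -1.74 and the sex difference in landscape effect was 0.29; the median of all gene models then shifted by -0.14 in the landscape contrast. Without the highest individual of each population, ÅL against ÖL was 3.03 (called) and SA against ÖL 0.48 for Defensin-1, and UP against SA 0.070 for Defensin-5. Without the highest of each population and sex, the landscape difference in males was 0.82 for Defensin-1 (no call), and males against females of Defensin-5 was -2.15 in ÅL (called), 0.31 in UP and 0.023 in ÖL. In the balanced set, males against females was 1.20 (no call) and -2.06 (called), -0.21 in SA for Defensin-1, and -5.47 in ÅL (called) and 0.30 in ÖL for Defensin-5; the landscape difference was 3.09 in females for Defensin-1 and 0.98 in males for Defensin-5, neither called. Without the 8 individuals whose sex-biased genes resembled the other sex, males against females in SA was 1.61 (no call) for Defensin-1, and the sex difference in landscape effect was 0.30 and 0.24. With depth as a covariate the latter was 0.17 for Defensin-5.

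With all individuals above 100 normalized counts left out, chosen after seeing the data and on the same genes, the landscape difference was 0.69 and 0.81, in females 0.76 and -0.0081, in males 0.57 for Defensin-1, and its sex difference 0.88 for Defensin-5; ÅL against SA was 1.18 and 0.86, ÅL against UP 0.86 and UP against SA 0.0050 for Defensin-5; males against females was 0.26 for Defensin-1, 0.15 in SA, and 0.34 in ÅL and 0.54 in UP for Defensin-5; and r and rho were 0.088 and 0.073. The permutation test of landscape passed with all 174 individuals (0.84 and 0.79). Library size alone, bias-adjusted deviances, limma-voom for pairs and the omission of single individuals were also added after seeing the data.

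Leaving out single balanced individuals above 100, Defensin-1 ranged from -0.81 to 2.17 for ÅL against UP, 1.87 to 3.88 for ÅL against SA, 1.44 to 4.37 for ÅL against ÖL, 1.04 to 3.32 for UP against SA, 0.63 to 3.81 for UP against ÖL and -1.09 to 1.16 for SA against ÖL. Defensin-5 ranged from -1.38 to 0.76 for UP against SA, 0.37 to 1.53 for UP against ÖL and 0.30 to 2.23 for SA against ÖL.

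The number of gene models called was 2652 for landscape, and 4556 with all individuals, 1240 outside the balanced set, 465 and 892 in balanced females and males, and 1663 and 853 without ÅL and without SA. For males against females it was 2249, and 3978 with limma-voom, 3950 with library size alone and 772 in the balanced set. No paired analysis applied, since each library came from a different butterfly and, per the study's methods, from a different family. Depth limits the low values, where 1 read is a large step.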
